A study of Capra hircus with 9 samples.

Results

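The constitutive proteasome subunit genes of the goat mammary gland were described at 3 stages of the reproductive cycle. They were taken by name alone: every gene of the expression table whose symbol was PSM followed by a letter from A to G and a number, leaving out PSMB8, PSMB9 and PSMB10, the catalytic subunits of the immunoproteasome. The rule gave 45 of 23499 genes and used no measured value. Of these 45 genes, 43 reached 0.5 FPKM in at least 3 libraries and were tested. PSMA8 and PSMB11 did not reach it.

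The proteasome is the protease that degrades proteins tagged with ubiquitin. Its barrel-shaped core particle is built of alpha rings, which gate the entrance, and beta rings, which carry the cutting sites. A regulatory particle of an ATPase ring, further base subunits and a lid recognises, deubiquitinates and unfolds the substrate. Other activators can cap the core instead, and dedicated chaperones help to assemble the core and the base. Interferon induces PSMB8, PSMB9 and PSMB10, which take the places of the constitutive catalytic subunits PSMB5, PSMB6 and PSMB7 in newly made cores, and also the activator pair PSME1 and PSME2. In the mammary gland, protein turnover changes as the secretory tissue grows before birth, makes milk and regresses afterwards.

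The 9 libraries came from slaughtered Laoshan dairy goats, a Chinese dairy breed, all healthy, of parity 3 and on average 4 years old. 3 goats were in late lactation (LL, 240 days postpartum), 3 in the dry period (DP, 300 days postpartum) and 3 in late gestation (LG, 140 days after mating). Whole mammary tissue was sequenced, so fewer cells of a type and less RNA per cell cannot be told apart. The luminal epithelial markers KRT8, KRT18, KRT19, EPCAM, CDH1 and ELF5 summed to 496 to 612 FPKM in LL libraries, 410 to 753 FPKM in DP libraries and 904 to 1170 FPKM in LG libraries, and none of them was at 0 in a whole stage. On the scaled values used below the order differs, with sums of 819 to 1106 for LL, 269 to 522 for DP and 733 to 891 for LG. ELF5, a transcription factor of secretory cells, was called lower in DP than in LL (log2 fold change -4.19 ± 0.25 SE, adjusted p = 3.13e-06). At an adjusted p under 0.05 in limma, EPCAM (-0.74, adjusted p = 0.0257) and CDH1 (-0.48, adjusted p = 0.0311) were also lower. KRT19 (-0.40), KRT8 (0.28) and KRT18 (0.60) did not pass. ELF5 held 440 to 676 of the scaled sums for LL and 25.8 to 44.2 for DP. It stands in the closing block of the table, described with PSME1. FPKM, fragments scaled by gene length and library size, carry no read counts, so the depth behind a value and its counting error are unknown. The 10 highest genes held 80.6% to 86.0% of the summed FPKM in LL and 53.6% to 58.5% in DP and LG. The values were therefore divided by a median-ratio factor per library, 0.498 to 0.605 for LL, 1.44 to 1.53 for DP and 1.198 to 1.31 for LG, and the quotient is called scaled FPKM here. Fold changes are on the log2(scaled FPKM + 1) scale, which understates the changes of weakly expressed genes, and come from limma over all 9 libraries. A gene was called at a Benjamini-Hochberg adjusted p under 0.05, over 14701 genes, if its log2 fold change also reached 1 in either direction.

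In FPKM as deposited, the most abundant proteasome gene in LL was PSMG4, a chaperone of core assembly, with 42.6 ± 0.867 (SD, n = 3). Behind it came the beta ring genes PSMB4 with 29.0 ± 5.57 and PSMB1 with 28.4 ± 0.906, which did not differ beyond their spread. In DP, PSMB4 with 59.0 ± 5.62, PSMG4 with 57.4 ± 0.734, the alpha ring gene PSMA7 with 54.8 ± 9.15 and PSME1 with 53.4 ± 1.46 were the highest, of which PSMG4 and PSME1 differed by more than their SDs and the other neighbours in this order did not. In LG, PSMG4 with 92.8 ± 1.91 and PSME1 with 89.8 ± 6.38 stood above PSMB4 with 68.3 ± 8.34. The least abundant tested genes were PSME4 with 2.27 ± 0.493 and the base chaperone PSMD10 with 2.35 ± 0.140 in LL, and the ATPase gene PSMC5 with 6.63 ± 1.18 in DP and 6.41 ± 1.46 in LG. In DP the activator PSME3, with 6.47 ± 1.38, was as low. Of the untested genes, PSMA8, an alpha subunit known from the testis, lay between 0.04 and 0.80 FPKM in every library. PSMB11, the thymus-specific beta subunit, lay between 0 and 0.22 FPKM. The gene IDs of all 45 genes, and their start and end, equal those of the RefSeq gene table of ARS1.2. PSMB11 lies beside PSMB5 on chromosome 10, at 79609285 to 79610536 on the plus strand, and PSMB5 at 79598325 to 79603890 on the minus strand.

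In DP against LL, which asks what differs after milking has ended, most proteasome genes were lower on the scaled values, by less than the threshold for a call. The median log2 fold change of the 43 genes was -0.31, beside 0.00406 over all genes tested. No proteasome gene was called in limma, where 8.79% of all genes tested were called lower and 13.8% higher. At an adjusted p under 0.05 without the fold threshold, 3 were higher (6.98%, against 28.2% of all genes) and 14 lower (32.6%, against 28.6% of all genes). The share of lower genes is thus near that of all genes. At an unadjusted p under 0.05 the counts were 4 higher and 16 lower, against 31.0% and 31.3% of all genes. The 3 higher genes were the activators PSME1, PSME2 and PSME4. The 14 lower genes were PSMB1, PSMB5, PSMB6, PSMB7, PSMC3, PSMD8, PSMD11, PSMD12, PSMD13, PSMD14, PSMD5, PSME3, PSMG2 and PSMG4. With quantile normalization the median of the 43 genes was 0.06 instead, and 13 of these 14 genes were still below 0 but 5 of them passed the adjusted p. The count of 14 fell to 9 without library LL1, 7 without LL2 and 9 without DP1.

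In LG against LL, PSME1 and PSME2 were called higher and no proteasome gene lower, so 4.65% of the 43 genes were called higher, against 10.7% of all genes, and 0 lower, against 6.61%. The median log2 fold change was 0.03, beside 0.02 over all genes tested. At an adjusted p under 0.05 in limma, 8 genes were higher (18.6%, against 25.6% of all genes). They were PSMA5, PSMD4, PSMD13, PSMD10, PSME1, PSME2, PSME4 and PSMG3. The 4 lower genes were PSMB6, PSMC3, PSMD11 and PSMD12 (9.3%, against 24.6% of all genes). At an unadjusted p under 0.05 in limma, 10 were higher and 7 lower, against 28.7% and 28.0% of all genes. The median moved to 0.23 with quantile normalization, and fell to -0.04 without LL3 and -0.02 without LG3. The 8 higher genes all passed the adjusted p with quantile normalization, and 2 of the 4 lower genes, PSMD11 and PSMD12, did. The count of higher genes fell to 5 without LL3, and that of lower genes to 1 without LL1, LL2, LG1 or LG2 and to 2 without DP2.

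In LG against DP, which sets the growing gland against the dry one, 40 of the 43 genes had a log2 fold change above 0, with a median of 0.28 beside 0.00833 over all genes tested. None was called, where 6.88% of all genes were called lower and 6.37% higher. At an adjusted p under 0.05 in limma, 14 were higher (32.6%, against 18.4% of all genes) and 0 lower, against 16.4% of all genes. At an unadjusted p the counts were 16 and 0, against 23.6% and 21.8% of all genes. The 14 genes were PSMA2, PSMB1, PSMB5, PSMB6, PSMB7, PSMD8, PSMD13, PSMD5, PSMD9, PSMD10, PSME1, PSME2, PSMG3 and PSMG4. All 14 kept their direction with quantile normalization and without scaling, where 9 and 7 of them passed the adjusted p. The count of 14 fell to 9 without library DP1, and without LG2 PSME1 was called. Each of the 3 comparisons shares 3 libraries with each of the others, so their values are not independent of each other. Stages without overlap, as given for single genes below, are common among all genes tested. All DP libraries lay above all LL libraries for 5 of the 43 genes and below for 19, against 32.5% and 33.4% of all genes. For LG versus LL the counts were 12 and 8, against 31% and 30.2%. For LG versus DP they were 16 and 0, against 25.1% and 22.8%.

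**Figure D1:**
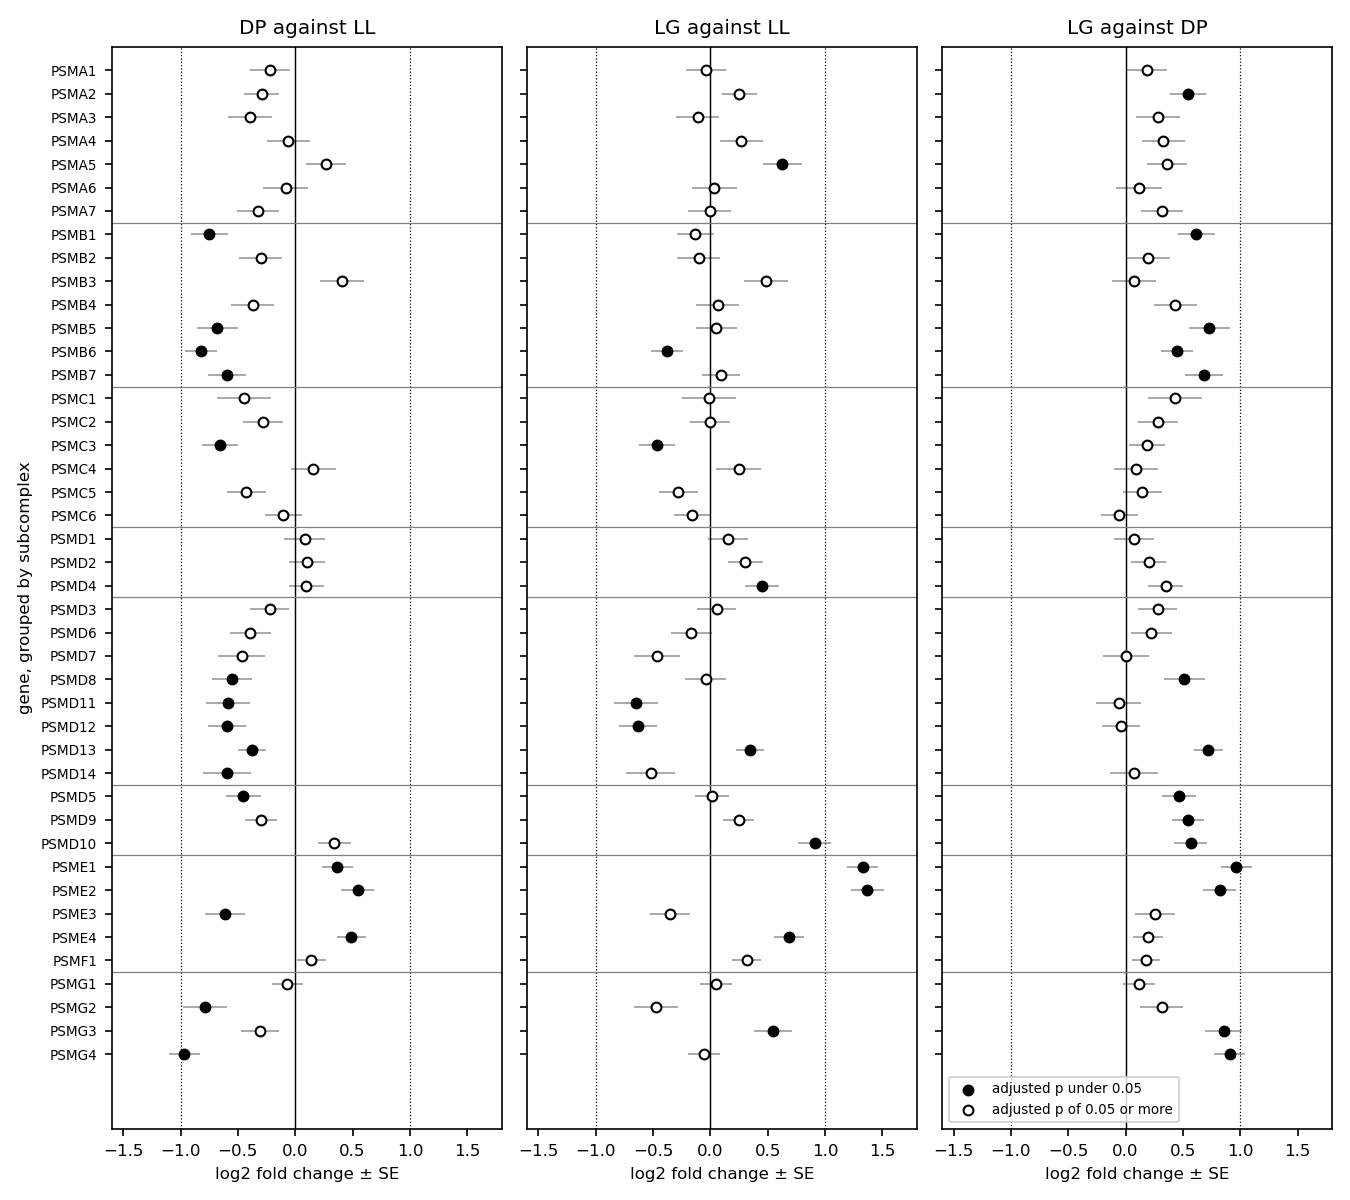
Log2 fold change of the 43 tested proteasome genes in the 3 comparisons, on the log2(scaled FPKM + 1) scale, with bars of 1 SE from limma over 9 libraries. Filled points passed an adjusted p under 0.05, dotted lines mark a log2 fold change of 1 in size, and PSME1 and PSME2 in LG against LL are the filled points beyond it. The median of DP against LL is -0.31 here and 0.06 with quantile normalization.

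The scaling between libraries sets the level of these comparisons. If this step is left out, the whole table has a median of 1.09 in DP against LL, 0.93 for LG versus LL and -0.18 for LG versus DP, and the medians of the proteasome genes were 1.02, 1.14 and 0.07. Relative to that shift the proteasome genes lay at -0.07, 0.21 and 0.25. All 14 genes lower in DP against LL and all 4 lower in LG against LL were also below the shifted median of all genes, and the higher genes were above it. Summed over the 45 genes, the deposited values were 535 to 587 FPKM for LL, 1102 to 1324 FPKM for DP and 1242 to 1568 FPKM for LG. The scaled sums were 937 to 1075 for LL, 721 to 920 for DP and 1007 to 1194 for LG, so DP lay below both other stages on that scale and LL lay lowest as deposited.

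**Figure D2:**
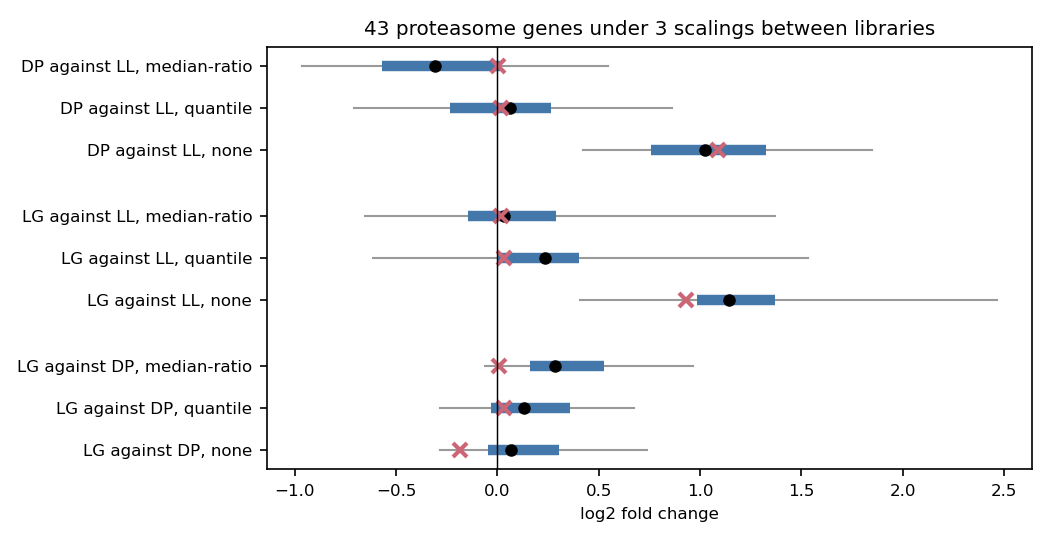
Log2 fold changes of the 43 proteasome genes in each comparison under median-ratio scaling, quantile normalization and no scaling. Dots are medians, thick bars the interquartile range, thin lines the range and crosses the median of all genes tested, and the dot for DP against LL moves from -0.31 to 0.06 and 1.02.

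Of the 7 tested alpha ring genes, PSMA1 to PSMA7, few passed a test. In DP against LL none passed the adjusted p and their median was -0.22. In LG against LL only PSMA5 did. Scaled FPKM of PSMA5 were 19.1, 19.4 and 20.3 (LL), 19.9, 24.9 and 27.0 (DP) and 31.4, 25.2 and 36.9 (LG). Every LG library lay above every LL library, and the DP libraries overlapped both (log2 fold change 0.63 ± 0.17 SE, adjusted p = 0.0135). In LG against DP all 7 lay above 0, with a median of 0.32, and PSMA2 passed (0.54 ± 0.15 SE, adjusted p = 0.0222). The values listed for PSMA6 follow those of its neighbour KIAA0391 on the same strand, 2.52 to 3.02 FPKM apart in every library. The values of PSMA6 and KIAA0391 are therefore not separate measurements, and which gene they belong to is not known.

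The beta ring, which carries the proteolytic sites, had the lower median of the core rings in DP against LL, -0.60. PSMB1, PSMB5, PSMB6 and PSMB7 passed the adjusted p there, and PSMB2, PSMB3 and PSMB4 did not. PSMB5 encodes the chymotrypsin-like subunit. The libraries gave scaled FPKM of 31.1, 31.6 and 25.9 (LL), 14.4, 17.8 and 22.8 (DP) and 31.4, 27.5 and 32.9 (LG). The DP libraries lay below all others, and LL and LG overlapped (DP against LL -0.68 ± 0.18 SE, adjusted p = 0.0102, LG against DP 0.73 ± 0.18 SE, adjusted p = 0.0122). PSMB6, the caspase-like subunit, had scaled FPKM of 47.0, 46.7 and 39.4 (LL), 22.3, 24.3 and 27.2 (DP) and 34.3, 35.2 and 32.1 (LG). The 3 stages did not overlap, with LL highest and DP lowest (DP against LL -0.83 ± 0.14 SE, adjusted p = 9.78e-04, LG against LL -0.38 ± 0.14 SE, adjusted p = 0.0477). PSMB7, the trypsin-like subunit, had scaled FPKM of 37.7, 43.6 and 31.1 (LL), 21.4, 24.4 and 27.2 (DP) and 43.1, 36.7 and 39.1 (LG). It was lower in DP than in both other stages, which overlapped (DP against LL -0.60 ± 0.17 SE, adjusted p = 0.0126, LG against DP 0.68 ± 0.17 SE, adjusted p = 0.0109). As deposited, the mean FPKM of PSMB5, PSMB6 and PSMB7 were 16.2, 24.4 and 20.6 in LL against 26.8, 36.1 and 35.7 in DP, so the direction of their change in DP depends on the scaling.

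PSMB3, a beta subunit without a cutting site, was the exception of the beta ring. It had scaled FPKM of 28.5, 19.2 and 22.6 (LL), 25.5, 31.6 and 37.2 (DP) and 31.0, 31.1 and 36.6 (LG). LL and DP overlapped in LL1 and DP1, and no comparison passed the adjusted p (DP against LL 0.41 ± 0.19 SE, adjusted p = 0.0908). Within a library, no scaling enters. There the median of the 7 beta ring genes lay 0.62 to 0.95 above the median of the 43 genes (log2) in LL, 0.33 to 0.46 above in DP and 0.36 to 0.53 above in LG. By these medians, which can rest on different genes in each library, every LL library had a higher beta ring than every DP and LG library. Gene by gene, the median log2 fold change of the 7 genes was -0.60 in DP against LL, beside -0.31 for the 43 genes. In LG against LL it was 0.05, beside 0.03, so there the beta ring genes did not fall relative to the 43 genes. The alpha ring lay 0.35 to 0.45 above that median for LL, 0.35 to 0.48 for DP and 0.04 to 0.34 for LG, so LL and DP overlapped.

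Among the chaperones of core assembly, PSMG1 and PSMG2 work as one pair and PSMG3 and PSMG4 as another. PSMG4 had the lowest log2 fold change of all proteasome genes in DP against LL. Scaled FPKM of PSMG4 were 84.6, 76.0 and 72.0 (LL), 37.4, 39.4 and 40.5 (DP) and 79.1, 73.8 and 70.4 (LG). DP lay apart from the overlapping LL and LG libraries (DP against LL -0.97 ± 0.14 SE, adjusted p = 3.16e-04, LG against DP 0.91 ± 0.14 SE, adjusted p = 9.83e-04). Without LL3 its fall passed the fold threshold, at -1.02. As deposited, its highest coefficient of variation over the 3 stages, 2.05%, was the lowest of the tested proteasome genes, followed by that of PSMB6, 7.33%. Its partner PSMG3 had scaled FPKM of 17.7, 23.5 and 16.9 (LL), 17.1, 16.3 and 12.8 (DP) and 28.0, 28.2 and 29.2 (LG). The LG libraries lay above all others (LG against DP 0.85 ± 0.16 SE, adjusted p = 0.00349, LG against LL 0.55 ± 0.16 SE, adjusted p = 0.0195), and in DP against LL the value did not pass (-0.31 ± 0.16 SE, adjusted p = 0.133). PSMG2 had scaled FPKM of 12.7, 12.5 and 11.2 (LL), 5.45, 6.52 and 8.04 (DP) and 8.60, 6.38 and 10.9 (LG). LL was above all other libraries, and the difference passed for DP (-0.79 ± 0.19 SE, adjusted p = 0.00639) and not for LG (-0.47 ± 0.19 SE, adjusted p = 0.062). The values of PSMG1 follow those of its neighbour BRWD1, 1.0 to 1.5 FPKM apart in every library, and none of its comparisons passed.

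In the regulatory particle, the 6 ATPase genes PSMC1 to PSMC6 differed among themselves. Their log2 fold changes ran from -0.65 to 0.16 in DP against LL, from -0.46 to 0.25 for LG versus LL and from -0.05 to 0.43 for LG versus DP. Only PSMC3 passed the adjusted p, lower in both comparisons with LL (DP -0.65 ± 0.16 SE, adjusted p = 0.00627, LG -0.46 ± 0.16 SE, adjusted p = 0.0329). Its scaled FPKM were 40.4, 38.0 and 35.9 (LL), 19.7, 23.6 and 29.0 (DP) and 27.0, 26.5 and 28.5 (LG), so every LL library lay above every other library. PSMC6 was among the lowest in LG against DP, with scaled FPKM of 22.9, 22.6 and 20.9 (LL), 17.9, 19.96 and 24.2 (DP) and 20.6, 16.6 and 22.5 (LG). These overlapped throughout (LG against DP -0.05 ± 0.16 SE, adjusted p = 0.823). Of the base subunits without ATPase activity, PSMD1 and PSMD2, which dock ubiquitin receptors, did not pass in any comparison, and the receptor PSMD4 was higher in LG than in LL (0.45 ± 0.15 SE, adjusted p = 0.0329).

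The lid genes split. In DP against LL all 8 had a log2 fold change below 0, from -0.60 to -0.22, and PSMD8, PSMD11, PSMD12, PSMD13 and PSMD14 passed the adjusted p. With quantile normalization only PSMD12 of these 5 passed. PSMD11, a scaffold subunit, had scaled FPKM of 14.7, 13.7 and 12.4 (LL), 6.68, 8.80 and 11.0 (DP) and 7.06, 7.62 and 10.5 (LG). LL lay above both other stages, which overlapped (LG against LL -0.65 ± 0.19 SE, adjusted p = 0.0185, LG against DP -0.06 ± 0.19 SE, adjusted p = 0.831). PSMD12, a further scaffold, showed the same order with scaled FPKM of 9.18, 10.8 and 10.9 (LL), 5.31, 6.54 and 7.70 (DP) and 5.75, 5.45 and 7.81 (LG). Its LG against LL value was -0.63 ± 0.17 SE, adjusted p = 0.0108 and its LG against DP value -0.04 ± 0.17 SE, adjusted p = 0.885. PSMD14, the subunit that removes ubiquitin from substrates, had scaled FPKM of 16.9, 16.3 and 17.0 (LL), 8.40, 11.0 and 13.3 (DP) and 12.6, 8.16 and 14.1 (LG). LL lay highest, and the difference passed for DP (-0.59 ± 0.21 SE, adjusted p = 0.0353) but not for LG (-0.52 ± 0.21 SE, adjusted p = 0.0635).

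PSMD13 went the other way in LG. It had scaled FPKM of 26.8, 28.9 and 26.1 (LL), 21.4, 21.5 and 19.3 (DP) and 33.2, 36.2 and 35.1 (LG), and the 3 stages did not overlap. It was higher in LG than in DP (0.72 ± 0.12 SE, adjusted p = 0.00205) and than in LL (0.34 ± 0.12 SE, adjusted p = 0.0429), the latter not with scaling factors from the rows before the closing block of the table, described with PSME1. Within a library, the median of the 8 lid genes lay -0.36 to -0.34 from the median of the 43 genes (log2) for LL, -0.87 to -0.53 for DP and -1.17 to -0.85 for LG. Relative to the other proteasome genes the lid was therefore lower in DP and in LG than in LL. The table places PSMD13 and PSMG3 on scaffolds without a chromosome.

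The 3 chaperones of base assembly, PSMD5, PSMD9 and PSMD10, all passed the adjusted p in LG against DP, at 0.47 to 0.57. PSMD10, also known as the oncoprotein gankyrin, is on the X chromosome (35462630 to 35470483, plus strand). The libraries gave scaled FPKM of 4.60, 4.07 and 4.15 (LL), 5.41, 5.37 and 6.27 (DP) and 9.62, 7.06 and 10.3 (LG). The stages did not overlap, with LL lowest and LG highest (LG against LL 0.91 ± 0.14 SE, adjusted p = 8.38e-04, LG against DP 0.57 ± 0.14 SE, adjusted p = 0.0139). In LG against LL it lay just under the fold threshold, and without LG2 it passed at 1.06, as it did at 1.04 with a pseudocount of 0.1. PSMD5 fell in DP against LL (-0.45 ± 0.15 SE, adjusted p = 0.0268), and its LG against LL value was 0.02.

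**Figure D3:**
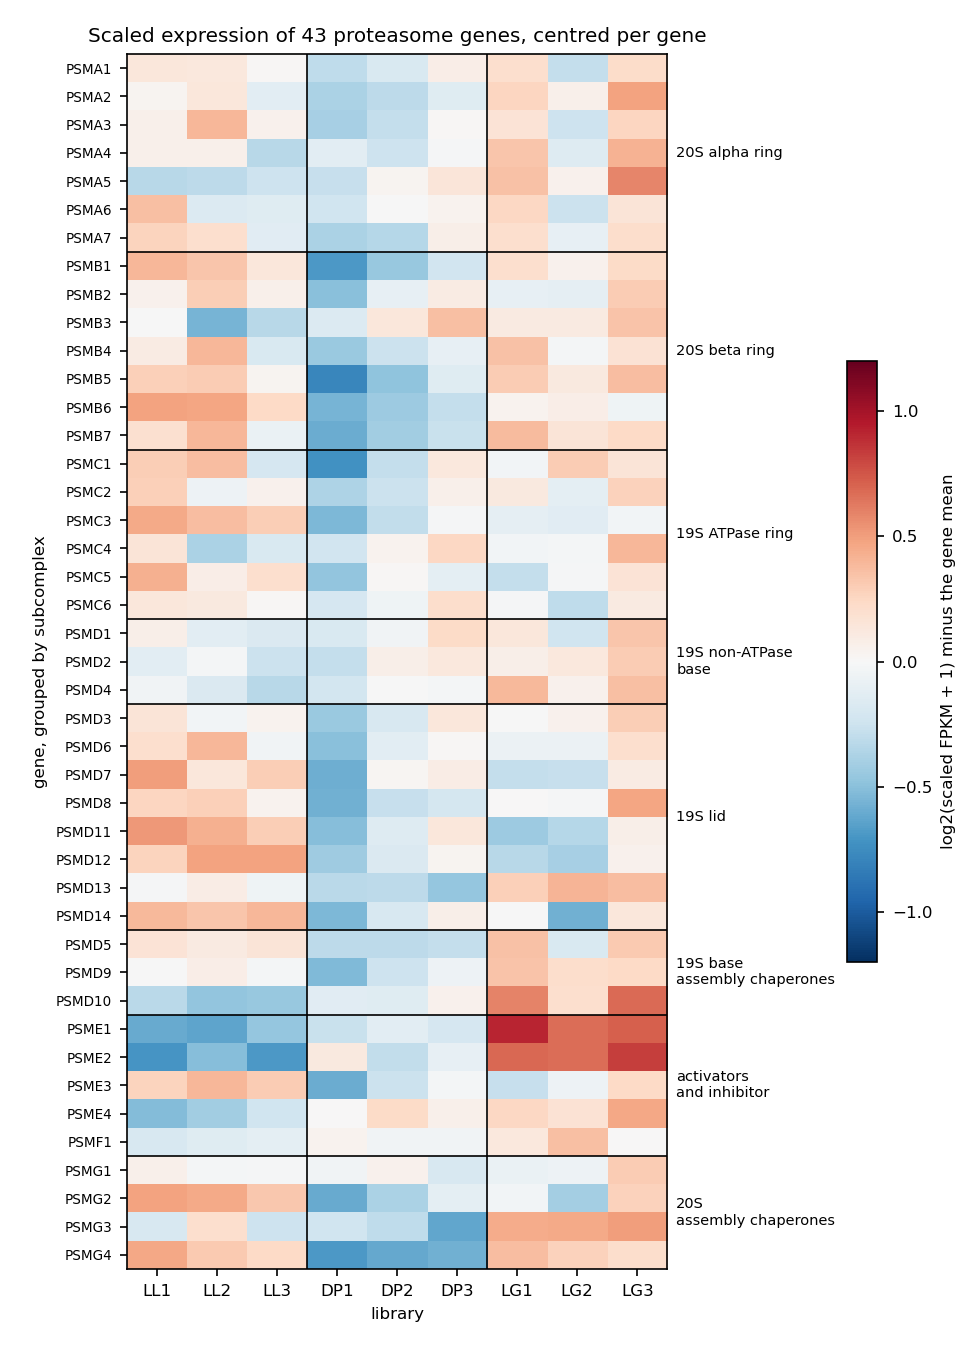
Scaled expression of the 43 tested proteasome genes in the 9 libraries, as log2(scaled FPKM + 1) minus the mean of the gene, with genes in rows by subcomplex and libraries in columns. PSME1 and PSME2 are highest in LG, most lid genes are highest in LL, and DP1 is the lowest DP library for 35 of the 43 genes.

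Among the activators were the largest changes in LG against LL, those of PSME2 and PSME1, and the largest in LG against DP, that of PSME1. PSME1 and PSME2 encode the subunits of the interferon-inducible activator, and lie next to each other on chromosome 10, at 80418160 to 80420956 on the plus strand and at 80425928 to 80429833 on the minus strand. PSME1 had scaled FPKM of 27.3, 26.7 and 30.1 (LL), 34.7, 38.2 and 36.2 (DP) and 79.7, 67.2 and 69.4 (LG). The 3 stages did not overlap and rose from LL over DP to LG (DP against LL 0.37 ± 0.14 SE, adjusted p = 0.0418, LG against LL 1.33 ± 0.14 SE, adjusted p = 6.42e-05, LG against DP 0.96 ± 0.14 SE, adjusted p = 6.95e-04). PSME2 had scaled FPKM of 11.3, 13.1 and 11.5 (LL), 20.8, 15.5 and 17.9 (DP) and 31.6, 31.1 and 34.9 (LG). Its stages had the same order without overlap (DP against LL 0.55 ± 0.14 SE, adjusted p = 0.00984, LG against LL 1.37 ± 0.14 SE, adjusted p = 7.79e-05, LG against DP 0.82 ± 0.14 SE, adjusted p = 0.00222). In LG against LL both stayed called in each of the 9 fits that left out 1 library, and their log2 fold changes lay between 1.26 and 1.54 under all alternatives, where the fit without scaling was taken relative to the median of all genes.

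PSME1 and PSME2 stand in a block of 1387 rows that closes the table, as do PSMB8, PSMB9 and PSMB10. The rows before this block are ordered by falling mean in LG, with 1 exception, and hold the other 43 of the 45 genes. Of the tested genes in the block 67.6% were called in DP against LL, 53.0% for LG versus LL and 63.7% for LG versus DP, against 17.9%, 13.6% and 7.99% of the other tested genes. The part of this placement in the PSME1 and PSME2 values, and in those of PSMB8, PSMB9 and PSMB10, was not tested. With scaling factors from the rows before the block, PSME1 no longer passed the adjusted p in DP against LL.

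PSME4, which encodes a single-chain nuclear activator, had scaled FPKM of 3.64, 3.98 and 4.61 (LL), 5.66, 6.77 and 5.91 (DP) and 6.88, 6.46 and 8.14 (LG). LL lay below both other stages, which overlapped (DP against LL 0.49 ± 0.13 SE, adjusted p = 0.00995, LG against LL 0.68 ± 0.13 SE, adjusted p = 0.00211). PSME3, the nuclear relative of PSME1 and PSME2, moved the opposite way in DP. Its scaled FPKM were 6.85, 7.65 and 7.07 (LL), 3.33, 4.48 and 5.45 (DP) and 4.39, 5.26 and 6.74 (LG), with LL above all other libraries (DP against LL -0.61 ± 0.18 SE, adjusted p = 0.0146, LG against LL -0.36 ± 0.18 SE, adjusted p = 0.119). The values of PSME3 follow those of its neighbour AOC2, 1.0 to 1.5 FPKM apart in every library, and are not a separate measurement. PSMF1, the proteasome inhibitor PI31, had scaled FPKM of 7.75, 8.06 and 8.27 (LL), 9.35, 8.75 and 8.76 (DP) and 9.94, 11.9 and 9.06 (LG), and did not pass in any comparison (LG against LL 0.32 ± 0.12 SE, adjusted p = 0.0577). The table lists the same value for PSMF1 in DP2 and DP3 (12.61 FPKM) and in LG1 and LG3 (11.9 FPKM). Of 5097 tested genes with at least 3 FPKM in every library, it is the only 1 with equal values in more than 1 stage, and 58 have them in 1 stage.

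**Figure D4:**
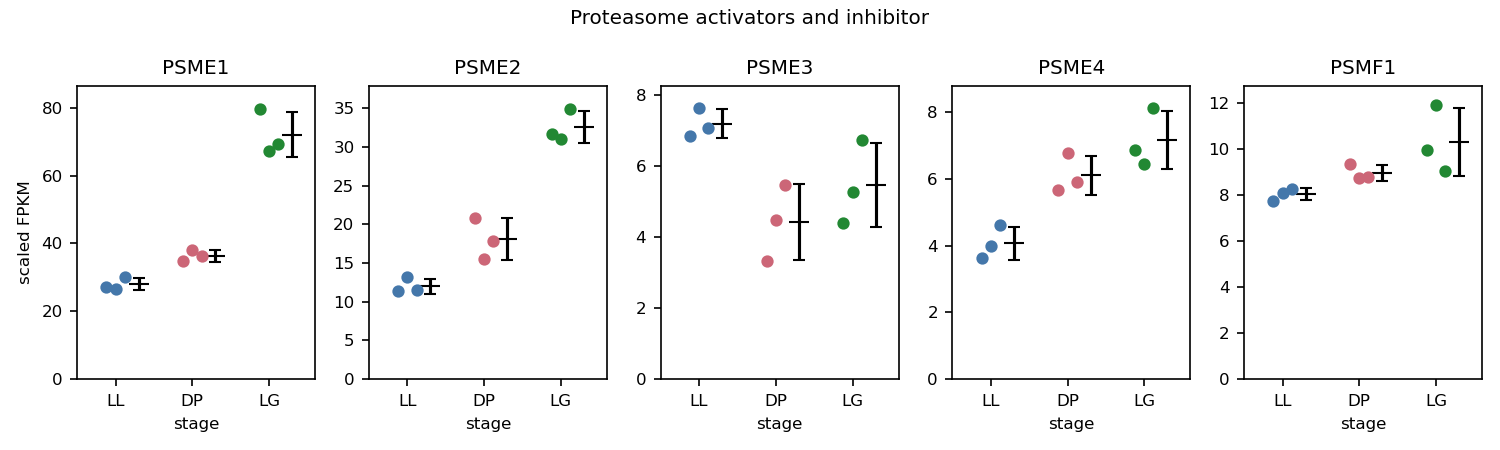
Scaled FPKM of PSME1, PSME2, PSME3, PSME4 and PSMF1 by stage, each dot a library and the bar the mean ± SD (n = 3). PSME1 rises from 26.7 to 30.1 (LL) over 34.7 to 38.2 (DP) to 67.2 to 79.7 (LG), and PSME3 lies highest in LL.

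The immunoproteasome subunits, which are not among the 45 genes, were compared with the constitutive subunits they replace. PSMB8 had scaled FPKM of 12.2, 10.1 and 12.7 (LL), 31.2, 23.1 and 17.6 (DP) and 49.5, 54.0 and 38.6 (LG), without overlap between stages. PSMB9 had 8.98, 4.99 and 6.47 (LL), 22.8, 14.5 and 12.7 (DP) and 26.7, 29.8 and 15.5 (LG) scaled FPKM, with DP and LG overlapping. PSMB10 had 13.5, 10.7 and 12.4 (LL), 32.5, 31.2 and 32.4 (DP) and 89.9, 66.4 and 60.7 (LG) scaled FPKM, without overlap. All 3 were called higher in LG than in LL (log2 fold changes 1.93, 1.66 and 2.46), where PSMB5 and PSMB7 did not pass and PSMB6 was lower. The ratio of FPKM of such a pair within a library needs no scaling, but its numerator stands in the closing block and its denominator does not. For PSMB8 to PSMB5 it was 0.391, 0.319 and 0.488 (LL), 2.18, 1.30 and 0.770 (DP) and 1.58, 1.96 and 1.17 (LG). For PSMB9 to PSMB6 it was 0.191, 0.107 and 0.164 (LL), 1.02, 0.596 and 0.468 (DP) and 0.780, 0.844 and 0.483 (LG). For PSMB10 to PSMB7 it was 0.357, 0.245 and 0.399 (LL), 1.52, 1.28 and 1.19 (DP) and 2.08, 1.81 and 1.55 (LG). In all 3 pairs every LL library lay below every other library.

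The log2 ratios differed between the stages by an exact permutation test of the F statistic over all assignments of the 9 libraries, adjusted over the 3 ratios. The adjusted p was 0.0321 for PSMB8 to PSMB5 (unadjusted exact p = 0.025), 0.0321 for PSMB9 to PSMB6 (unadjusted exact p = 0.0321) and 0.0107 for PSMB10 to PSMB7 (unadjusted exact p = 0.00357, the smallest these assignments can give). Against LL, the mean log2 ratio was higher in DP by 1.72, 2.14 and 2.02 and in LG by 1.97, 2.19 and 2.46, in that order of pairs. LG and DP differed by 0.24, 0.05 and 0.45. For a pair of stages the exact two-sided test cannot give a p below 0.1, which was reached against LL in every pair and for PSMB10 to PSMB7 also in LG against DP, while the other LG against DP values had exact p = 0.7 and exact p = 0.9. Without any 1 of the LL libraries the adjusted p of PSMB8 to PSMB5 no longer passed, with differences from LL of 1.57 to 2.12. The 3 immunoproteasome subunits together made up 17.4% to 24.6% of the FPKM of the 6 catalytic subunits for LL, 44.8% to 59.8% for DP and 52.4% to 60.4% for LG. These are shares of mRNA and not of assembled proteasomes.

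**Figure D5:**
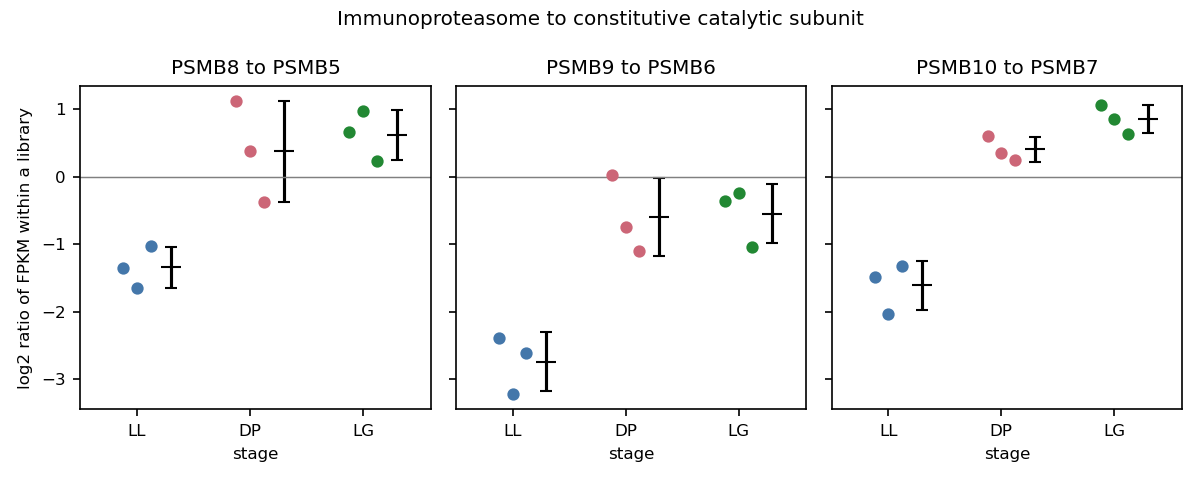
Log2 ratio of the FPKM of each immunoproteasome subunit to that of the constitutive subunit it replaces, within a library, by stage. Dots are libraries and bars mean ± SD of the log2 ratios (n = 3), and all LL libraries lie below the DP and LG libraries in each of the 3 pairs.

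Markers of other cells and genes of the interferon response also differed between the stages. The interferon response genes IRF1, TAP1, TAP2 and NLRC5 all passed the adjusted p higher in DP than in LL, with log2 fold changes from 0.86 (TAP2) to 1.52 (NLRC5), and were called higher in LG than in LL, from 1.19 (TAP1) to 1.75 (IRF1). IRF1 and TAP2 also passed higher in LG than in DP (0.86 and 0.81). The 7 leukocyte markers PTPRC, ITGB2, TYROBP, CSF1R, CD3E, CD79A and CD74 summed to 69.96 to 80.2 FPKM (LL), 375 to 672 FPKM (DP) and 154 to 186 FPKM (LG), and none was at 0 in a whole stage. Scaled, these sums were 116 to 161 (LL), 261 to 440 (DP) and 118 to 151 (LG), so LL and LG overlapped. CD74 alone held 76.4 to 115 (LL), 187 to 307 (DP) and 87.3 to 109 (LG) of them. At an adjusted p under 0.05, 6 of the 6 tested were higher in DP than in LL (28.2% of all genes). In LG against LL 0 were higher (25.6% of all genes), and against DP 5 were lower in LG (16.4%). In LG against LL 3 of the 6 lay above 0 and 3 below. CD3E lay higher in every LG library than in every LL library, but did not pass in limma (0.78 ± 0.34 SE, adjusted p = 0.0833). Of the 5 fibroblast markers COL1A1, COL1A2, DCN, LUM and PDGFRA, 4 were called higher in DP than in LL, against 13.8% of all genes. These 4, all but LUM, stand in the closing block, where 67.6% of the tested genes were called in DP against LL. So do the leukocyte markers PTPRC, TYROBP, CSF1R and CD74 and the interferon response genes IRF1 and TAP2. The part of this placement in the marker values was not tested. In LG against LL the fibroblast markers did not move together, with a median log2 fold change of 0.01. COL1A1 was called higher, and PDGFRA was lower in limma (-0.76 ± 0.20 SE, adjusted p = 0.0109). COL1A2 (1.68), LUM (0.01) and DCN (-0.24) did not pass. The scaled sums of the 5 were 151 to 235 (LL), 359 to 1593 (DP) and 253 to 484 (LG). PSME1, PSME2, PSMB8 and PSMB10 were highest in LG. The summed leukocyte markers, of which CD74 was the largest in every library, were highest in DP. The part of other cell types and of the interferon response in the proteasome values was not tested.

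Other genes of the pathway, 27 of 28 listed with a row in the table, gave medians of -0.08 in DP against LL, -0.01 for LG versus LL and 0.11 for LG versus DP. At an adjusted p under 0.05, 3 of the 27 were higher and 9 lower in DP against LL, where 28.2% and 28.6% of all genes were. For LG versus LL the counts were 3 and 4, against 25.6% and 24.6% of all genes. For LG versus DP they were 4 and 2, against 18.4% and 16.4%. NFE2L1, the transcription factor that drives proteasome genes, had scaled FPKM of 44.2, 42.0 and 41.0 (LL), 29.7, 26.0 and 34.8 (DP) and 27.5, 29.3 and 32.3 (LG). LL lay above all other libraries (DP against LL -0.49 ± 0.15 SE, adjusted p = 0.0189, LG against LL -0.50 ± 0.15 SE, adjusted p = 0.0181). POMP, which matures the core, fell in DP against LL (-0.50 ± 0.17 SE, adjusted p = 0.0278) and its LG against LL value did not pass (-0.21 ± 0.17 SE, adjusted p = 0.317). The ubiquitin receptor ADRM1 and the lid subunit SHFM1, an older symbol of SEM1, did not pass in any comparison, with log2 fold changes between -0.27 and 0.36. The ubiquitin shuttle gene UBQLN4 was called higher in LG against LL (1.16 ± 0.18 SE, adjusted p = 8.11e-04).

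Other multi-subunit machines were set beside the proteasome. The 9 genes of the COP9 signalosome, a complex related to the lid, had medians of -0.30 in DP against LL, -0.16 for LG versus LL and 0.38 for LG versus DP. The 8 genes of the chaperonin TRiC, which folds proteins, had medians of 0.01, 0.63 and 0.55. Beside these the proteasome medians were -0.31, 0.03 and 0.28, and no test was made of the differences.

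Within a stage the proteasome genes moved together between animals. DP3 was the highest DP library for 34 of the 43 genes (79.1%, against 38.7% of all genes tested) and DP1 the lowest for 35 (81.4%, against 37.4%). LG3 was the highest LG library for 31 (72.1%, against 32.8%) and LG2 the lowest for 28 (65.1%, against 28.6%). In LL the order was less uniform, with LL1 highest for 21 and LL3 lowest for 24. The median of the 43 genes, as log2(scaled FPKM + 1), was 4.18, 4.23 and 4.50 in DP1, DP2 and DP3, 4.71, 4.67 and 4.88 in LG1, LG2 and LG3, and 4.51, 4.56 and 4.41 in LL1, LL2 and LL3. The genes of a library share its scaling factor and its tissue sample, so they are not replicates of this difference.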

How the data were processed

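Mammary tissue of 9 Laoshan dairy goats was sequenced, 3 in each stage. The labels name FastQC, Trimmomatic, HISAT2, SAMtools and HTSeq, and the methods StringTie for transcripts; reads were aligned to a goat reference genome that the methods give by an identifier and not by a build name. How the gene values followed from the alignments, and whether the correction for unwanted variation in the methods was applied to them, is not given in the sources used here. The table the authors deposited holds 9 columns of values, which were taken as FPKM because they carry decimals and their sums differ between libraries. All 9 columns were used, and depth is unknown.

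The values were divided by median-ratio factors from 15905 genes, 1 was added and log2 taken. Genes that reached 0.5 FPKM in 3 or more libraries, 14701 in number, entered limma 3.58.1 under R 4.3.3 (eBayes with trend, all 9 libraries, no covariate), with Benjamini-Hochberg adjustment over all genes. Exact permutation tests and counts were run in Python 3.11.15 using numpy 2.4.6 together with pandas 2.3.3. Each goat gave 1 library. The fit was tested on simulated data. Values linked to a neighbour were searched for among the 8 next genes on either side, with a residual of at most 1% of the range. Each gene was fitted by the neighbour's values and a fixed amount per library, the difference between PSMA6 and KIAA0391. That pair therefore met the limit by construction.

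The members and all gene lists were chosen with earlier results of these data known. Named genes were the catalytic subunits, their immunoproteasome counterparts, the activators, PSMF1, the untested genes, each gene called, the 3 genes with the largest and the 3 with the smallest log2 fold change per comparison, and ADRM1, SHFM1, POMP and NFE2L1. Further genes that passed or whose values stood apart were named after their values were seen, among them PSMA2, PSMA5, PSMC3, PSMD4, PSMD5 and PSMD13. Levels relative to the median of the 43 genes, the order of libraries within a stage and equal values were looked at after the data were seen. Promoter motifs were not analysed here. Some results on other genes of the lists are not reported here. Alternatives were no scaling, quantile normalization, a pseudocount of 0.1, no filter or a filter of 2 FPKM, 2 stages in the fit, a replicate block, no trend, the adjusted p alone, no linked genes and each library left out. Scaling factors from the rows before the closing block, and the alternatives of the counts at an adjusted p alone, were added after the data were seen.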

Additional observations from a re-analysis of the deposited data

How the results depend on the processing

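The choice of scaling moved the results most. Without scaling, 23 proteasome genes were called higher in DP against LL and 32 for LG versus LL, 43 and 41 were higher at an adjusted p under 0.05, 0 and 0 were lower, and 7 were higher in LG against DP. Relative to the shifted median of all genes, the unscaled medians were -0.0664 in DP against LL and 0.21 in LG against LL. With quantile normalization the medians were 0.0638 in DP against LL, 0.23 for LG versus LL and 0.129 for LG versus DP, 7 genes were higher and 6 lower in DP against LL, 2 lower in LG against LL and 9 higher in LG against DP at an adjusted p under 0.05. The adjusted p alone gave 3 higher and 14 lower genes in DP against LL, 8 and 4 for LG versus LL and 14 higher for LG versus DP. With scaling factors from the rows before the closing block, 1 gene was called lower in DP against LL, PSMG4.

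Leaving out 1 library at a time gave 0 to 1 genes called lower and 7 to 16 lower at an adjusted p under 0.05 in DP against LL. For LG versus LL it gave 5 to 9 higher and 1 to 5 lower at an adjusted p under 0.05 and a median of -0.0379 to 0.12. In LG against DP it gave 0 to 1 called higher and 9 to 12 higher at an adjusted p under 0.05. The log2 difference of PSMB8 to PSMB5 was then 1.35 to 2.10 in DP against LL, 1.79 to 2.16 for LG versus LL and -0.13 to 0.62 for LG versus DP, and that of PSMB9 to PSMB6 -0.19 to 0.37 in LG against DP.

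Of single genes, with quantile normalization the log2 fold changes of PSMC6 (0.28) and PSMG3 (0.0053) in DP against LL, PSMG4 (0.30) in LG against LL, and PSMB3 (-0.18) and PSMD14 (-0.0611) in LG against DP changed sign. Relative to the unscaled median of all genes those of PSMC6 (0.15 in DP against LL, 0.0301 for LG versus LL) and PSMG4 (0.18 in LG against LL) did. Leaving out 1 library at a time gave ranges across 0 of -0.0379 to 0.124 for PSMB5, -0.0343 to 0.203 for PSMB7 and -0.108 to 0.0073 for PSMG4 in LG against LL, and of -0.063 to 0.201 for PSMB3, -0.229 to 0.0962 for PSMD11, -0.175 to 0.0751 for PSMD12, -0.0867 to 0.289 for PSMD14 and -0.146 to 0.0643 for PSMC6 in LG against DP. None of these passed the adjusted p in the reported fit. The cause of these changes was not tested, beyond what the scaling itself sets.

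For libraries with the same replicate number, the correlations over genes of their deviations from the stage mean ran from -0.11 to 0.20. For libraries with different numbers they ran from -0.22 to 0.07. The highest were between DP1 and LG1 (0.20), DP3 and LG3 (0.16) and LL1 and DP1 (0.15), which share a number. This difference was not tested. With a replicate block, calls stayed at 0 in DP against LL, 2 for LG versus LL and 0 for LG versus DP, and 2 higher and 14 lower, 6 higher and 3 lower, and 12 higher and 0 lower passed the adjusted p. The other pseudocount, filters, fits by 2 stages or without trend, and the removal of linked genes kept each of these counts within 1.5 times, with 3 called in LG against LL at a pseudocount of 0.1. Depth is unknown for all values, and 3 goats per stage limit the precision.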
